A study of Mus musculus with 12 samples.

Results

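The genes described here are 10 genes of lipid droplets and fatty acid uptake, chosen by name: the perilipins Plin2, Plin3, Plin4 and Plin5, the CIDE proteins Cidec and Cideb, the fatty acid carriers Cd36 and Fabp1, and Pnpla2 and G0s2, which act in lipolysis. All 10 were found among the 24187 genes of the deposited count table, of which 24128 had a gene symbol in the annotation. All 10 were also among the 22581 genes left for testing after genes with low counts were set aside. They were measured by bulk RNA sequencing of liver from 12 mice.

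The labels name the strain C57BL/6J and place the mice in 3 groups. Control mice (n = 3) were untreated. Vehicle-treated mice (n = 5) received paracetamol (APAP), labelled as 350 mg/kg, and then phosphate-buffered saline. hAAM-treated mice (n = 4) received the same APAP and then human alternatively activated macrophages (hAAM), which are cells grown from human CD14+ blood monocytes with CSF1 and polarised with IL-4 and IL-13. The study's methods give mice of 10 to 12 weeks, fasted for 12 h before APAP, and an intravenous injection of cells or vehicle 16 h after it. Food was returned soon after APAP. The methods also describe mice given saline after the same fast, but the labels call these controls untreated and do not say that they were fasted. Fasting, refeeding and APAP therefore cannot be told apart in a comparison with the controls. Sex was not labelled, and in all 12 livers the Y-linked Ddx3y stood at 54.4 to 75.1 CPM (counts scaled to a common library size) with Xist at 2.59 CPM or less.

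A lipid droplet is a core of triglyceride under a single layer of phospholipid, and the liver fills such droplets when fatty acids arrive faster than they are burned or exported. Perilipins coat the surface and control access of lipases, CIDE proteins pass lipid between droplets and help load lipoproteins, CD36 takes up long-chain fatty acids at the cell membrane, and FABP1 carries them in the hepatocyte cytosol. PNPLA2, also called ATGL, removes the first fatty acid from a triglyceride, and G0S2 inhibits it. Several of these genes are known targets of the nuclear receptor PPARalpha, which binds as a dimer with RXR to a pair of half-sites spaced by a single base (a DR1 element).

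Library totals ran from 47391650 to 74056505 counts, and CPM values here use library sizes scaled by TMM. The spread between the counts of hAAM replicate 4 and vehicle replicate 3 was 1.19 times what counting alone gives. In the other 35 pairs of APAP livers it was 2.37 to 4.98 times. The members differed little between those 2 libraries, with CPM ratios of 0.969 to 1.07. Vehicle replicate 5 differed in the immunoglobulin gene Ighm, at 54.7 CPM against at most 6.72 CPM in the other 11 livers. By the spread of counts it did not stand apart, at 2.86 to 4.42 times in its pairs with other APAP livers. The labels name the near-identical libraries as separate mice in different groups, and whether they come from 2 mice could not be settled here, so the 9 APAP libraries may come from fewer than 9 mice. Reads of the injected human cells were, as far as the sources used here say, not separated from mouse reads.

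The genes lie on 7 autosomes of the mouse build GRCm38. Plin4 (chr17:56100591-56109803) and Plin5 (chr17:56111601-56117596) are neighbours on the minus strand, 1797 bases apart, and Plin3 (chr17:56277476-56292873) follows 159879 bases further on. Plin2 lies at chr4:86648386-86670060, Cidec at chr6:113424634-113435760, Fabp1 at chr6:71199827-71205023, Cideb at chr14:55754050-55758458, Cd36 at chr5:17781690-17888801, Pnpla2 at chr7:141455198-141460743 and G0s2 at chr1:193272161-193273217. In the annotation, 1136 exon bases of Cideb, or 76.3% of its exons, are also exon of Nop9 on the opposite strand. Whether the counting used strand is not given in the sources used here, so the Cideb counts are uncertain. Plin4 shares 17 exon bases, or 0.3%, with Hdgfl2, and G0s2 lies within Lamb3 without sharing exon sequence.

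The promoters shown are those of Cd36, the member that passed the test below, and of Fabp1 and Plin2, whose windows hold the other DR1-like matches. That of Cidec is also shown, the member with the widest range among APAP livers when vehicle replicate 5 is included. Each is the 250 bases before a RefSeq transcript start (GRCm38.p6), read 5′ to 3′ on the strand of the gene. Capitals mark matches to a DR1, which is 2 copies of AGGTCA in the same direction with any 1 base between them, with at most 2 mismatches in 12 letters, and exact matches to the half-site AGGTCA, both searched on both strands. A half-site can lie inside a DR1 match.

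Cd36, chr5:17835897-17836146, minus strand: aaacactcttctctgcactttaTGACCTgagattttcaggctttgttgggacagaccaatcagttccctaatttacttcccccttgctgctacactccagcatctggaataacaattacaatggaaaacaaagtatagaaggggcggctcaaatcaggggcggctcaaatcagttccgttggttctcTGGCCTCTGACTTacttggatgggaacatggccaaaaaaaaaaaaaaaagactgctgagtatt

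Fabp1, chr6:71199629-71199878, plus strand: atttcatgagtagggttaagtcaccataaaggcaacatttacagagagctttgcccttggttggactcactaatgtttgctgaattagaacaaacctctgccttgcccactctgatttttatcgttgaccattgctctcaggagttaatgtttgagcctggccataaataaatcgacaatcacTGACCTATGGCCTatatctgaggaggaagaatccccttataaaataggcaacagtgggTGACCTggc

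Plin2, chr4:86670060-86670309, minus strand: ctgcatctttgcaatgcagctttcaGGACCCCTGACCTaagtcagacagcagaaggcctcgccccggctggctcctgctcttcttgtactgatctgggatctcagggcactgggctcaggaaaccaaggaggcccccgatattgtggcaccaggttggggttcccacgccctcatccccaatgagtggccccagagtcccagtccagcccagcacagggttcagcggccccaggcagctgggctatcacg

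Cidec, chr6:113435761-113436010, minus strand: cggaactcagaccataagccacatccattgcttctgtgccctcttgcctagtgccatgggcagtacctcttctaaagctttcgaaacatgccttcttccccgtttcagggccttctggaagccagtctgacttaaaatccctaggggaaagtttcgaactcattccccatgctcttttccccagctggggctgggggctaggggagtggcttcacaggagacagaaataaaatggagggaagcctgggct

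A DR1-like match was present in 3 of the 10 members' windows, against 3.24% of all 32851 RefSeq windows of this length. The Fabp1 match, 67 to 55 bases before the start, had 1 mismatch. The Cd36 match (63 to 51 bases before the start) and the Plin2 match (225 to 213 bases before it) had 2 mismatches each. An exact half-site was present in the windows of 4 members, Plin2, Plin5, Cd36 and Fabp1, against 14.0% of all windows. The letters TATAAA were present in those of Fabp1 and Cideb, against 12.4% of all windows. These matches are a description of the letters only. The Cd36 window belongs to 1 RefSeq start, 52905 bases inside the gene's outermost annotated start, and Cidec and Plin5 have 2 RefSeq windows each, of which the one nearest the annotated gene start was used.

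In control livers the levels, as mean CPM per kilobase of exon, ran in the order Fabp1 (750), Plin2 (89.8), G0s2 (31.4), Cideb (17.0), Pnpla2 (14.1), Plin5 (13.6), Plin3 (10.4), Cd36 (7.41), Plin4 (4.13) and Cidec (1.88). G0s2, Cideb, Pnpla2 and Plin5 formed a run in which each overlapped the next over the 3 livers, and Plin3 overlapped Cd36. The other neighbours in the order did not overlap. In hAAM-treated livers Cd36 came next after Fabp1 and Plin2, at 17.0 CPM per kilobase, with Cideb next at 15.7, and these overlapped. Among vehicle-treated livers every pair of neighbours in the order overlapped.

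The first question was what APAP injury did to these transcripts. Cd36 was the only member called by the main test: it was higher than in control mice after APAP with vehicle and after APAP with hAAM. By count, 1 of 10 members was called higher and 0 lower in each comparison, at a Benjamini-Hochberg false discovery rate (FDR) under 0.05 over all genes tested by edgeR's quasi-likelihood test. Over all genes, 29.8% were called with vehicle (15.0% higher and 14.8% lower) and 20.7% with hAAM (10.7% higher and 9.96% lower). The share of members called was 10.0% in both comparisons. It rests on 1 of 10 genes, too few to tell it from the share of all genes. The median log2 fold change of the members was 0.10 with vehicle and -0.09 with hAAM, against 0.01 and 0.02 for all genes. Comparisons with control share the same 3 control livers. In bulk liver, fewer cells of a type and less RNA per cell cannot be told apart.

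**Figure D1:**
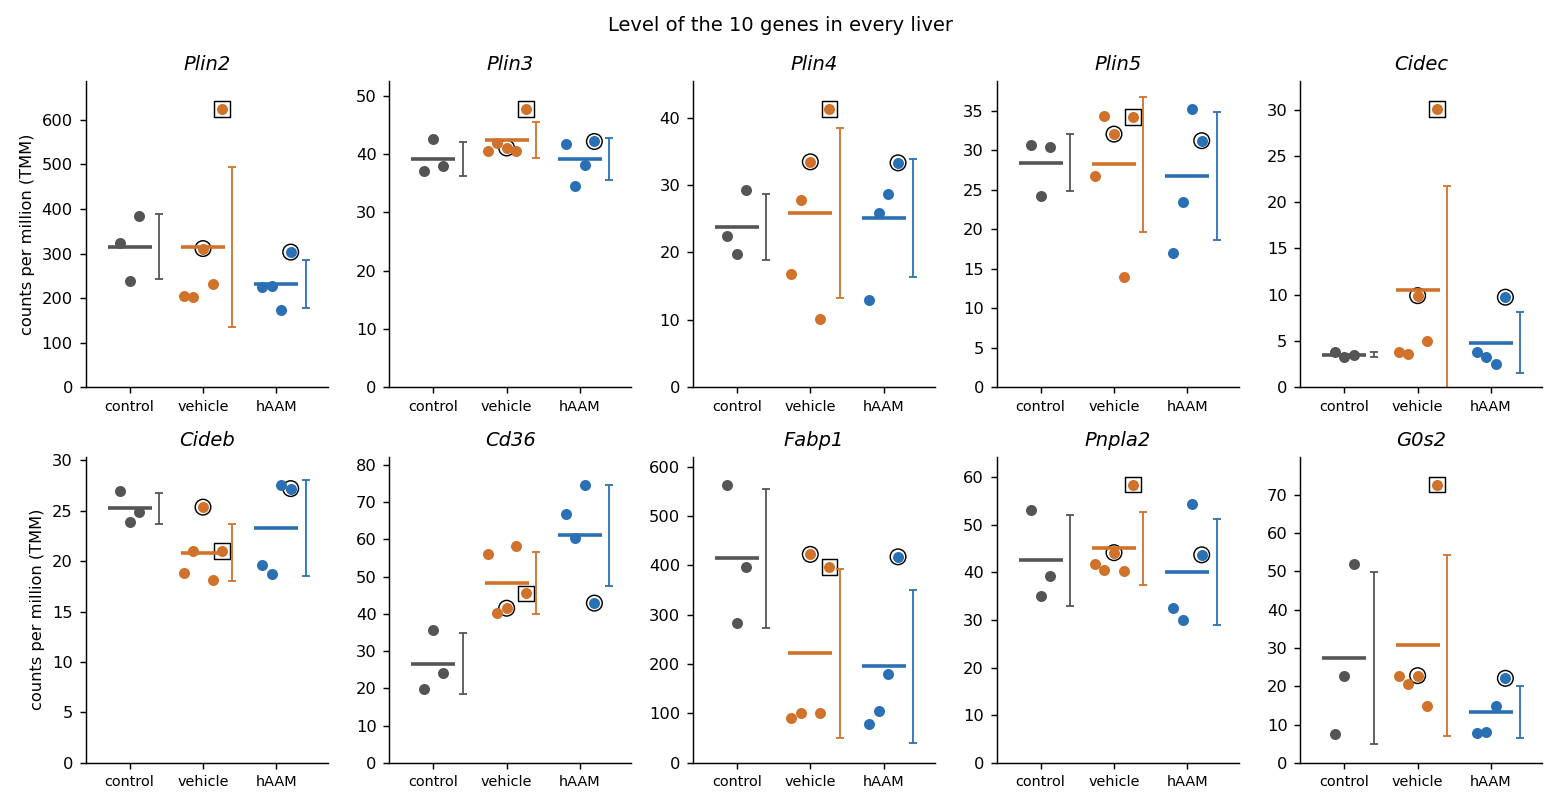
CPM of each gene (linear axis from 0) in every liver of the control, APAP with vehicle and APAP with hAAM groups; points are livers in replicate order, horizontal lines are group means and bars are 1 SD (the lower end is off the axis for Cidec with vehicle). Squares mark vehicle replicate 5 and circles the near-identical pair, vehicle replicate 3 and hAAM replicate 4; Cd36 is the only gene whose 9 APAP livers all lie above the 3 controls.

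Cd36, the membrane carrier of long-chain fatty acids, which macrophages and endothelium also express, stood at 20.0, 35.7 and 24.1 CPM in control replicates 1 to 3. In vehicle replicates 1 to 5 it stood at 56.1, 40.3, 41.5, 58.2 and 45.5 CPM, and in hAAM replicates 1 to 4 at 66.8, 60.3, 74.8 and 42.9 CPM. All 9 APAP livers lay above the highest control. Groups that do not overlap were seen for 34.8% of all genes with vehicle and for 28.5% with hAAM. With vehicle the log2 fold change was 0.86 (SE 0.217, 95% interval 0.39 to 1.33), a fold of 1.82 (edgeR FDR = 0.0116). With hAAM it was 1.20 (SE 0.227, 95% interval 0.71 to 1.70), a fold of 2.30 (edgeR FDR = 0.00492). The vehicle call rested on few controls: it was 0.69 with edgeR FDR = 0.0526 without control replicate 1, and 0.80 with FDR = 0.0504 without control replicate 3. Without the near-identical pair the log2 fold changes were 0.92 (FDR = 0.00718) and 1.34 (FDR = 0.00341).

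Markers of other cells moved in the same comparisons as Cd36. Of 8 macrophage markers, 4 were higher with vehicle and 4 with hAAM by the same test, and 0 lower. Their summed level was 235 to 268 CPM in controls, 310 to 511 with vehicle and 308 to 523 with hAAM. Cd68, Marco, Ccr2 and Lyz2 were the markers called. Those that did not pass were Adgre1 (log2 fold change 0.32 and 0.44), Csf1r (0.35 and 0.36), Clec4f (-0.48 and -0.36) and Timd4 (-0.07 and -0.03). Among endothelial markers 3 and 2 of 6 were called higher, with summed levels of 295 to 323, 337 to 439 and 313 to 430 CPM in the 3 groups in the same order. Lyve1 (log2 fold change 1.29 and 1.15) and Cdh5 (1.01 and 0.79) were called in both comparisons. Pecam1 was called with vehicle (1.00) and not with hAAM (0.82). Clec4g went the other way, from 35.0 to 36.2 CPM in controls to 15.2 to 29.6 and 14.3 to 27.7 CPM. It was at -0.58 (edgeR FDR = 0.0598, DESeq2 FDR = 0.0434) and -0.67 (edgeR FDR = 0.0532, DESeq2 FDR = 0.0302). Stab2 was at 0.23 and 0.10 and Kdr at -0.10 and -0.13, none of them called. The stellate cell markers had 3 of 6 called higher in each comparison and summed levels of 281 to 369, 383 to 598 and 377 to 721 CPM. The summed hepatocyte markers overlapped between groups, at 48380 to 78360, 59810 to 89620 and 63870 to 90880 CPM, a sum made up mostly of Alb. Of these 6 markers Ahsg was called higher in both comparisons (0.51 and 0.61) and Hnf4a lower with vehicle (-0.38, edgeR FDR = 0.0276). The part of these cells in the Cd36 difference was not tested.

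**Figure D2:**
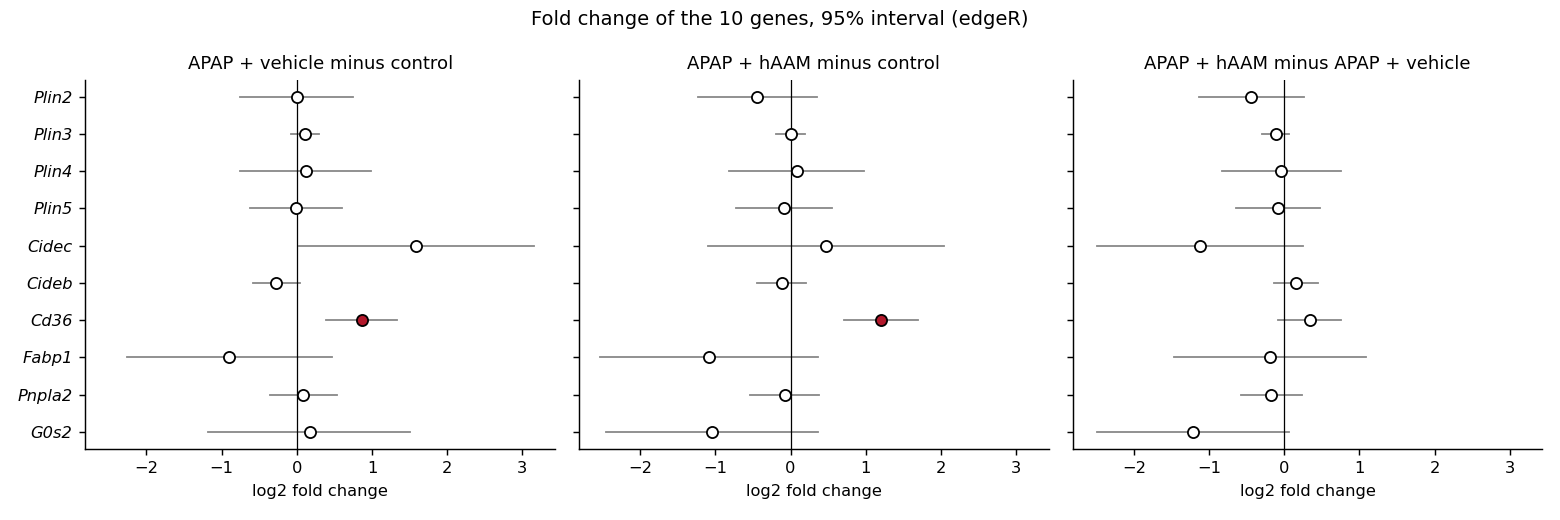
Log2 fold change of each gene with its 95% interval in the 3 comparisons, from the edgeR fit over all 12 livers; filled red points are those at FDR under 0.05. Cd36 is filled in both comparisons with control and no gene is filled between the treatments.

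Fabp1, the main fatty acid binding protein of hepatocytes, split the APAP livers without passing the test. It stood at 564, 283.5 and 397 CPM in control replicates 1 to 3. Vehicle replicates 1 to 5 had 90.2, 101, 422, 101 and 397 CPM, and hAAM replicates 1 to 4 had 79.4, 104, 180 and 417 CPM. In 6 of 9 APAP livers Fabp1 lay below every control, and in the other 3 it lay within the control range. Those 3 were vehicle replicate 3, vehicle replicate 5 and hAAM replicate 4. The log2 fold change was -0.90 with vehicle (SE 0.627, 95% interval -2.26 to 0.47, edgeR FDR = 0.301) and -1.09 with hAAM (SE 0.664, 95% interval -2.53 to 0.36, FDR = 0.267). Without the near-identical pair it was -1.26 (FDR = 0.0979) and -1.77 (FDR = 0.0586). DESeq2 run on the same 10 livers, an alternative added after these values were seen, called both, at -1.28 (FDR = 0.041) and -1.78 (FDR = 0.00826).

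Plin2, the most abundant perilipin of hepatocytes and a usual measure of stored lipid, was at 324, 238 and 383 CPM in control replicates 1 to 3. Vehicle replicates 1 to 5 had 204, 202, 311, 232 and 625 CPM, and hAAM replicates 1 to 4 had 225, 227, 174 and 303 CPM. Below the control range lay 6 of the 9 APAP livers, and 1, vehicle replicate 5, lay above it. The group means with vehicle and in controls were almost equal, 315 ± 179 (SD, n = 5) and 315 ± 72.9 CPM (SD, n = 3). The log2 fold change with vehicle was 0.00 (95% interval -0.76 to 0.75, edgeR FDR = 0.996), and -0.41 (FDR = 0.188) without vehicle replicate 5. With hAAM it was -0.44 (95% interval -1.23 to 0.35, FDR = 0.414), and -0.60 (FDR = 0.304) without hAAM replicate 4.

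The other perilipins did not pass the test in either comparison. Plin3, which is found on small new droplets and in the cytosol of most cells, had the smallest ratio of highest to lowest among the 9 APAP livers, 1.38 times. It stood at 37.2 to 42.6 CPM in controls, 40.5 to 47.7 with vehicle and 34.6 to 42.2 with hAAM. Its log2 fold changes were 0.11 (95% interval -0.08 to 0.30) and 0.00 (-0.20 to 0.19), relative to TMM scaling. Scaled by library size alone, Plin3 was called higher in both, at 0.46 (edgeR FDR = 0.00438) and 0.30 (FDR = 0.048), values close to the shift of all genes under that scaling.

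Plin4, best known from adipocytes and muscle, was spread widely over the APAP livers. It stood at 22.5, 19.8 and 29.3 CPM in controls, at 16.8, 27.7, 33.5, 10.1 and 41.3 CPM in vehicle replicates 1 to 5, and at 12.9, 25.9, 28.6 and 33.3 CPM in hAAM replicates 1 to 4. Thus 3 APAP livers lay below the controls, 3 within and 3 above. Its log2 fold changes were 0.12 with vehicle (95% interval -0.75 to 0.99) and 0.08 with hAAM (-0.82 to 0.98). They were -0.11 without vehicle replicate 5 and -0.08 without hAAM replicate 4, neither called.

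Plin5, the perilipin of oxidative tissues that ties droplets to mitochondria, stood at 30.7, 24.2 and 30.4 CPM in controls. It stood at 26.7, 34.3, 32.0, 13.9 and 34.2 CPM in vehicle replicates 1 to 5 and at 17.0, 23.4, 35.2 and 31.2 CPM in hAAM replicates 1 to 4. Its log2 fold changes were -0.01 (95% interval -0.62 to 0.60) and -0.09 (-0.72 to 0.55). The lowest vehicle liver was replicate 4 and the lowest hAAM liver replicate 1 for both Plin4 and its neighbour Plin5.

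Cidec, which promotes fusion into large droplets and is high in adipocytes and fatty liver, had the widest range among APAP livers, 12.2 times from lowest to highest against 1.18 times among controls. Without vehicle replicate 5 the Cidec range was 4.02 times, less than the 5.32 times of Fabp1. Controls held 3.77, 3.21 and 3.48 CPM. Vehicle replicates 1 to 5 held 3.80, 3.53, 9.89, 5.00 and 30.1 CPM, and hAAM replicates 1 to 4 held 3.84, 3.26, 2.46 and 9.73 CPM. The high livers were vehicle replicate 5 and the near-identical pair, and the other 6 lay between 2.46 and 5.00 CPM. The log2 fold change was 1.59 with vehicle (SE 0.718, 95% interval 0.03 to 3.15, edgeR FDR = 0.114). Without vehicle replicate 5 it was 0.67 (FDR = 0.319), and with hAAM it was 0.47 (95% interval -1.10 to 2.04, FDR = 0.683). Without the near-identical pair the hAAM value was -0.13 (FDR = 0.922).

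Adipocyte markers were read beside Cidec and Plin4, which adipocytes express. The adipocyte-defining genes Adipoq, Plin1 and Retn had at most 22, 29 and 12 counts in any liver and no more than 0.549 CPM. The summed adipocyte markers were 12.5 to 17.0 CPM in controls, 14.6 to 18.1 with vehicle and 11.1 to 19.5 with hAAM, and 14.9 CPM in vehicle replicate 5. Of the 6 adipocyte markers 5 were in the count table, and of these 2 passed the low-count filter, with 0 called.

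Cideb, the hepatocyte CIDE protein of lipoprotein loading, was at 26.9, 23.9 and 24.9 CPM in controls. Vehicle livers held 18.1 to 25.4 CPM with a median of 21.0, and hAAM livers held 18.7 to 27.6 with a median of 23.4. In 6 of 9 APAP livers it lay below the control range, in 2 (hAAM replicates 3 and 4) above it and in 1 within it. Its log2 fold changes were -0.28 with vehicle (95% interval -0.59 to 0.04, edgeR FDR = 0.166) and -0.12 with hAAM (-0.44 to 0.21, FDR = 0.623), and both values carry the doubt over Nop9 reads given above. Under library size alone, a scaling that moved the median of all genes by 0.36 and 0.32, the values were 0.07 and 0.17, neither called, a shift close to that of all genes.

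Of the lipolysis pair, the lipase gene Pnpla2 was at 53.1, 35.0 and 39.3 CPM in controls. Vehicle replicates 1 to 5 had 41.7, 40.5, 44.1, 40.3 and 58.4 CPM, and hAAM replicates 1 to 4 had 32.5, 29.9, 54.3 and 43.7 CPM. Within the control range lay 5 of the 9 APAP livers. The log2 fold changes were 0.08 with vehicle (95% interval -0.36 to 0.53; -0.03 without vehicle replicate 5) and -0.08 with hAAM (-0.54 to 0.38).

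G0s2, the inhibitor of that lipase and a gene that feeding raises, already varied 6.89 times among controls, at 7.53, 22.6 and 51.9 CPM. Vehicle replicates 1 to 5 had 22.6, 20.5, 22.8, 14.8 and 72.7 CPM, and hAAM replicates 1 to 4 had 7.87, 8.07, 14.9 and 22.1 CPM. Only vehicle replicate 5 left the control range, upwards. The log2 fold changes were 0.17 with vehicle (95% interval -1.18 to 1.51, edgeR FDR = 0.863) and -1.05 with hAAM (-2.45 to 0.36, FDR = 0.271). The vehicle value was -0.44 (FDR = 0.573) without vehicle replicate 5 and 1.02 (FDR = 0.3) without control replicate 3. The hAAM value was -0.19 (FDR = 0.88) without control replicate 3, -1.49 (FDR = 0.125) without control replicate 1 and -1.41 (FDR = 0.175) without hAAM replicate 4. A 2-fold decrease of G0s2 lay within both intervals.

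**Figure D3:**
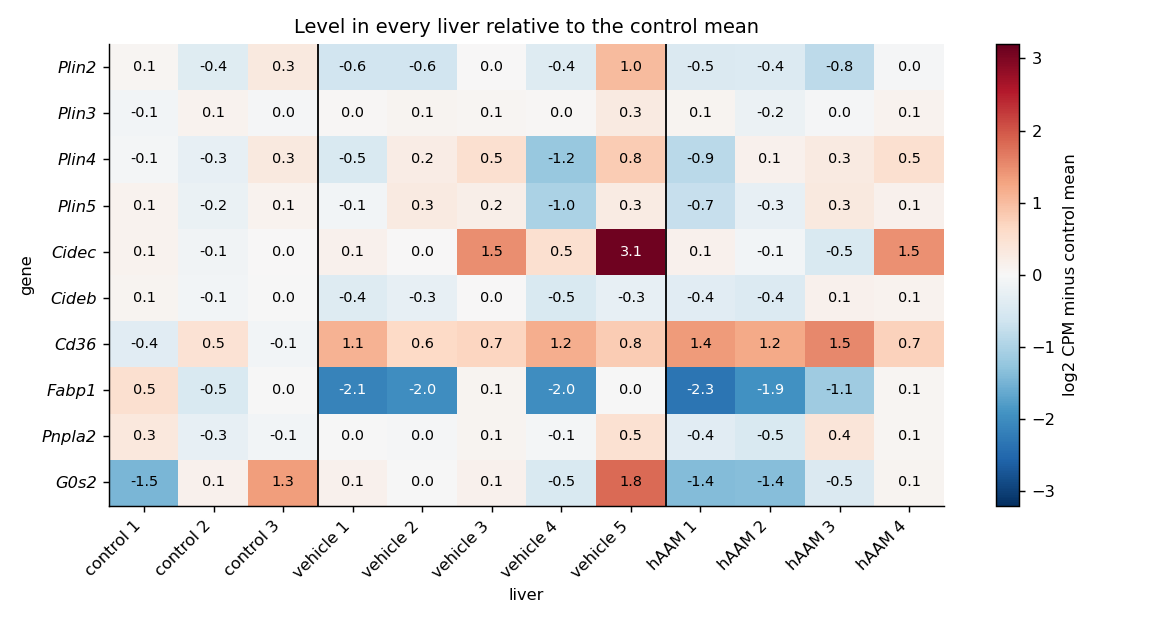
Level of each gene (rows) in every liver (columns), as log2 CPM minus the mean of the 3 control livers; red is higher and blue lower, and black lines part the groups. Cd36 is above 0 in all 9 APAP livers, Fabp1 is near -2 in 5 of them and near 0 in vehicle replicates 3 and 5 and hAAM replicate 4, and Cidec is high in those same 3 livers.

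The second question was whether hAAM changed these transcripts in injured livers, from hAAM against vehicle directly. No member was called: 0 of 10 passed the FDR, 0 had an unadjusted edgeR p under 0.05, and DESeq2 called 0. Over all genes edgeR called 0, or 0%, with 1133 at an unadjusted p under 0.05, and DESeq2 called 1. Groups did not overlap for 1.40% of all genes and for 0 of the 10 members. The median log2 difference of the members was -0.14, against 0.00 for all genes.

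The intervals of this difference leave room for sizeable changes in some members. Cd36 was 0.34 higher with hAAM (95% interval -0.08 to 0.76, edgeR FDR = 0.966), with 3 of 4 hAAM livers above the highest vehicle liver and hAAM replicate 4, of the near-identical pair, below 3 of the 5 vehicle livers. G0s2 had a log2 difference of -1.21 (95% interval -2.49 to 0.06, edgeR FDR = 0.966). It was -0.61 (FDR = 1.00) without vehicle replicate 5, and -1.67 (FDR = 0.713) without the near-identical pair. Cidec differed by -1.12 (95% interval -2.49 to 0.25), by -0.20 without vehicle replicate 5 and by -1.72 without hAAM replicate 4. Plin2 differed by -0.44 (-1.14 to 0.26) and by -0.03 without vehicle replicate 5. For Plin3 the interval was the narrowest, -0.29 to 0.06, and for Fabp1 it ran from -1.47 to 1.09 around -0.19. The Fabp1 difference was -0.87 without hAAM replicate 4, 0.18 without vehicle replicate 3 and 0.13 without vehicle replicate 5, none of them called.

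For context, 56 other genes of the same pathway were read from the same fit, of which 55 were in the count table and 53 were tested. Mogat1 was not in the table, and Plin1 and Cidea were set aside by the low-count filter. With vehicle 9 were called higher and 17 lower, or 49.1% against the 29.8% of all genes, with a median log2 fold change of -0.20. With hAAM 9 were higher and 10 lower, or 35.8% against 20.7%, with a median of -0.17. The list was chosen with earlier results of these data known, so these shares are a description and not a test of the pathway. Under library size alone the split turned to 17 higher and 7 lower with vehicle, and 15 higher and 3 lower with hAAM, a scaling that moved the median of all genes by 0.36 and 0.32. Directly between the treatments 0 of 53 were called by edgeR and 0 by DESeq2, and 3 (Gpat3, Lpin1 and Ppard) had an unadjusted edgeR p under 0.05.

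**Figure D4:**
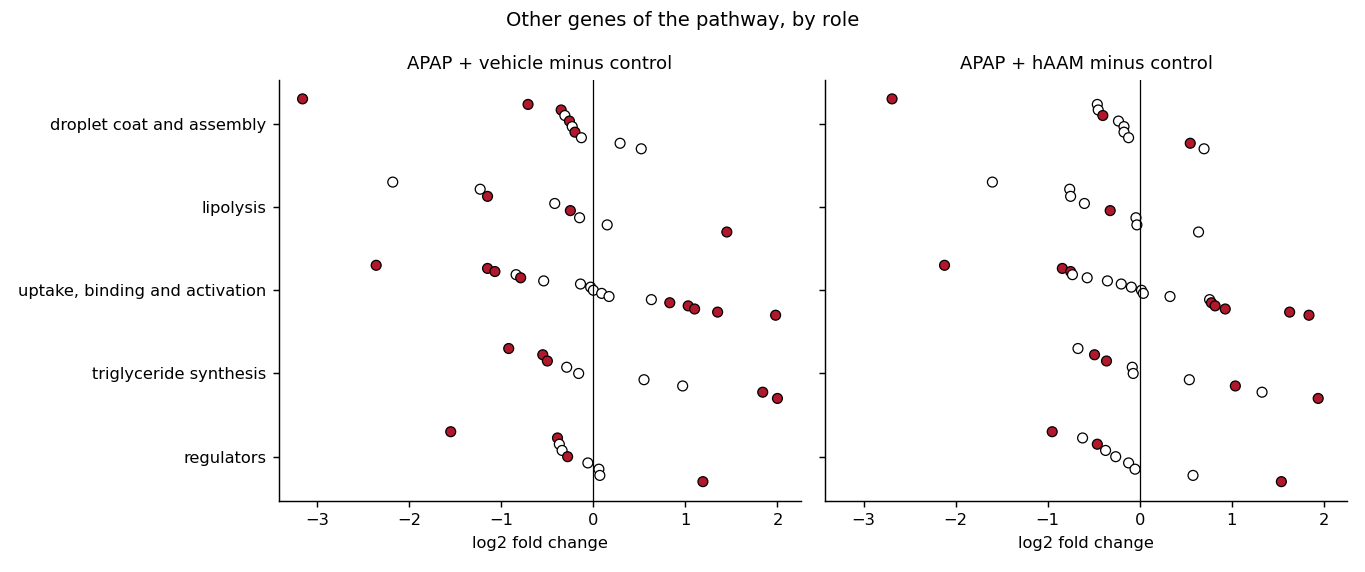
Log2 fold change of 53 other genes of the pathway by role, in APAP with vehicle and APAP with hAAM against control; filled red points are those at edgeR FDR under 0.05. With vehicle 9 are filled on the right of 0 and 17 on the left.

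Among the genes of droplet coat and assembly, 5 of 10 were lower and 0 higher with vehicle, and 2 lower and 1 higher with hAAM. The 1 higher was Hsd17b13, a droplet enzyme of hepatocytes, at 0.55 with hAAM (edgeR FDR = 0.0256) and 0.29 with vehicle (FDR = 0.149), named after its values were seen. Fitm1, which helps partition new triglyceride into droplets, fell most, from 7.69 ± 3.77 (SD, n = 3) CPM in controls to 0.857 ± 0.623 (SD, n = 5) with vehicle, which is -3.16 on the log2 scale with SE 0.58 (edgeR FDR = 0.00247). With hAAM it was -2.69 (FDR = 0.0116). Rab18, a small GTPase of the droplet surface, changed little but evenly, from 71.8 to 77.6 CPM in controls to 54.5 to 61.0 and 55.1 to 57.5 CPM, at -0.35 and -0.40. Acsl3, which activates fatty acids at growing droplets, was called with vehicle (-0.71) and not with hAAM (-0.45). The Fitm1 calls held in all 21 alternatives, the Rab18 calls were lost under library size alone (0.00 and -0.10), and the Acsl3 call was lost in 7, with -0.33 without control replicate 2.

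In the lipolysis group 1 of 8 was higher and 2 lower with vehicle, and 0 higher and 1 lower with hAAM. Hilpda, a hypoxia-induced inhibitor of ATGL, was at 1.40 ± 0.573 CPM (SD, n = 3) in controls and 3.82 ± 2.38 (SD, n = 5) with vehicle (log2 fold change 1.45, edgeR FDR = 0.0316), and with hAAM the value was 0.64 (FDR = 0.356). Aadac, an esterase of the endoplasmic reticulum, fell by 1.15 on the log2 scale with vehicle (FDR = 0.0077). With hAAM the Aadac value was -0.76, not called by edgeR (FDR = 0.0742) but called by DESeq2 (FDR = 0.0442). The ATGL co-activator Abhd5 was lower in both, at -0.25 (FDR = 0.0467) and -0.32 (FDR = 0.0258). The vehicle call of Aadac held in all 21 alternatives, that of Abhd5 was lost in 17, and that of Hilpda was lost in 6, with 1.03 (FDR = 0.0521) without vehicle replicate 5. The hAAM call of Abhd5 was lost in 5, with -0.19 (FDR = 0.104) without control replicate 1 and -0.02 under library size alone.

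Fatty acid uptake, binding and activation had 5 of 17 higher and 4 lower with vehicle, and 5 higher and 3 lower with hAAM. Lpl, the lipase that frees fatty acids from circulating lipoproteins, was higher in every APAP liver than in any control, from 15.96 to 37.3 CPM in controls to 49.6 to 85.7 and 64.0 to 107 CPM, at 1.35 (edgeR FDR = 0.00491) and 1.84 (FDR = 0.0025). Fabp4, the binding protein of adipocytes, macrophages and endothelium, rose by 1.98 and 1.63, and its hAAM call was lost without control replicate 1 (1.49) and without control replicate 3 (1.40). Fabp5, a binding protein of many cells, fell from 52.2 to 78.9 CPM in controls to 8.69 to 19.3 and 10.96 to 19.9 CPM, at -2.36 (FDR = 9.15e-05) and -2.12 (FDR = 0.000465). Fabp5 has near-identical copies in the mouse genome, so its counts are uncertain. Macrophages also express Lpl and Fabp4, and the part of the macrophage markers given above in these differences was not tested.

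In triglyceride synthesis 2 of 9 genes were higher and 3 lower with vehicle, and 2 higher and 2 lower with hAAM. Gpam, the mitochondrial acyltransferase of the first step, fell by 0.92 on the log2 scale with vehicle (edgeR FDR = 0.03), and its log2 fold change with hAAM was -0.67 (FDR = 0.135). Gpat3, an endoplasmic reticulum enzyme of the same step, rose by 1.84 with vehicle (edgeR FDR = 0.0016). Gpat3 was at 1.95 ± 0.578 CPM (SD, n = 3) in controls, 6.96 ± 2.81 (SD, n = 5) with vehicle and 3.99 ± 0.727 (SD, n = 4) with hAAM. Mogat2, a monoacylglycerol acyltransferase of the intestine, rose by 2.00 from very low counts of 3 to 11 in controls to 18 to 38 with vehicle, and its log2 fold change with hAAM was 1.33 (edgeR FDR = 0.0577). Lpin1, a phosphatidate phosphatase named here after its values were seen, rose by 1.94 with hAAM (edgeR FDR = 0.0191) and had a log2 fold change of 0.97 with vehicle (FDR = 0.134). The vehicle calls of Gpat3 and Mogat2 held in all alternatives that gave a value, and that of Gpam was lost in 8 of 21. The hAAM call of Gpat3 (1.04) was lost in 6, among them the fits without control replicate 1 (0.89) and control replicate 2 (0.95).

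Of the regulators, 1 of 9 was higher and 3 were lower with vehicle, and 1 higher and 2 lower with hAAM. Ppard, a fatty acid receptor, was at 34.9 to 51.5 CPM in controls, 11.1 to 22.1 with vehicle and 15.1 to 29.0 with hAAM, with log2 fold changes of -1.55 (edgeR FDR = 0.00108) and -0.95 (FDR = 0.0224). Rxra, the partner of the PPARs, was lower at -0.39 and -0.46, but at -0.05 (edgeR FDR = 0.674) and -0.16 (FDR = 0.175) under library size alone. Ppargc1a, a co-activator raised by fasting, was higher at 1.19 and 1.54. The vehicle call of Ppard held in all 21 alternatives, while those of Rxra and Ppargc1a were each lost in 3. With hAAM the call of Ppard was lost in 4, with -0.78 (FDR = 0.0842) without control replicate 2, that of Rxra in 5 and that of Ppargc1a in 1.

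The genes most like each member over the 12 livers were found by the root mean square difference of log2 CPM, each centred on its own mean, over 11157 other genes whose mean log2 CPM was 2 or more. For Cd36 the nearest was Abcg1 (0.161), against a spread of Cd36 itself of 0.548. For Fabp1, with a spread of 1.03, they were Acaa1b (0.298) and Aldh3a2 (0.344). For Cidec, with a spread of 0.971, they were Acot2 (0.385) and Cntnap1 (0.405), and for G0s2, with a spread of 0.968, Inhbe (0.436) and Cyp2d36-ps (0.494).

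The nearest genes to Plin2 were Hsdl2 (0.207) and Rab30 (0.217). Fgf1 was nearest to Plin5 (0.204) and second for Plin4 (0.343), after AC121973.1 (0.332), and Colec10 was second for Plin5 (0.224). Cideb had Agmo (0.055) and Cluh (0.068), Pnpla2 had Dcaf6 (0.104) and Txnrd3 (0.105), and Plin3 had Rbfox2 (0.065) and BC048403 (0.068). All these values come from the same 12 libraries and are a description.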

How the data were processed

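Liver RNA from 12 mice (3 control, 5 APAP with vehicle, 4 APAP with hAAM) was sequenced. Per the submitters' processing notes and the study's methods, the authors trimmed reads with cutadapt 4.6, aligned them with STAR 2.7.1a to GRCm38 and counted reads per Ensembl gene, and the deposited table holds raw counts. Whether counting used strand is not given in the sources used here. The labels give 350 mg/kg APAP, while the study's text sets the sequencing beside its higher-dose model. Each library was taken as 1 mouse, as labelled, though 2 libraries of different groups were near-identical.

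Counts were used as deposited. Genes were filtered with filterByExpr, scaled by TMM and tested with edgeR 4.0.16 (quasi-likelihood, R 4.3.3) in 1 fit over all 12 livers, with Benjamini-Hochberg adjustment over 22581 genes and a threshold of 0.05. DESeq2 1.42.0 was an alternative, and the scripts were tested on simulated data. Intervals are 95%. Symbols and exons came from GENCODE for GRCm38, and promoters from RefSeq GRCm38.p6. The members, the pathway list and the marker lists were chosen with earlier results of these data known. All 10 members are named. Of the other pathway genes the 3 with the largest change with vehicle among those called are named in each role, and for likeness the 2 nearest genes per member, of which 1 is not reported here.

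Alternatives were DESeq2, other scalings and filters, only the 2 groups compared, a block for the replicate number, each liver left out, and both libraries of the near-identical pair left out.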

Additional observations from a re-analysis of the deposited data

Results flagged for a closer look

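Vehicle replicate 5 stood apart from the other 4 vehicle livers by Dixon's test in 5 of the 10 members. Plin2 was at 625 CPM there against 202 to 311 in the others, and Plin3 at 47.7 CPM against 40.5 to 42.0. Cidec was at 30.1 CPM against 3.53 to 9.89, Pnpla2 at 58.4 against 40.3 to 44.1, and G0s2 at 72.7 against 14.8 to 22.8. The 5 genes were all higher in that liver, which also had the Ighm excess given above, and the cause was not tested. Among the other pathway genes named, Acsl3 was low in hAAM replicate 2, at 21.1 CPM against 32.4 to 34.4, and Ppard was high in vehicle replicate 3, at 22.1 CPM against 11.1 to 13.5. In all, 7 of 50 groups of values stood out. As 5 of these were vehicle replicate 5, the groups were not independent, and the count cannot be set against a chance rate.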

How the results depend on the processing

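Cd36 with hAAM was called in all 21 alternatives, at 1.03 to 1.5 on the log2 scale. The number of members called with vehicle, 1 in the main fit, was 3 under library size alone (Cd36, Plin3 and Cidec at 1.94), 2 in DESeq2 without the near-identical pair (Cd36 and Fabp1), and 0 to 1 when each liver was left out. With hAAM it was 2 under library size alone and 2 in DESeq2 without the pair. Plin3 with hAAM turned from 0.00 to 0.30 under library size alone, which raised the median of all genes by 0.32. Other pathway genes called with hAAM, 19 in the main fit, were 10 to 22 when each liver was left out, with 10 without hAAM replicate 2, 11 without control replicate 1, 12 without control replicate 2 and 12 without control replicate 3. Replicate numbers did not pair the livers (correlations of -0.458 to 0.385 over 10 pairs). With a replicate block the members called with vehicle were 0 (Cd36 0.93, FDR = 0.0529), and all genes called were 4253 against 6719 with vehicle and 2959 against 4666 with hAAM. Of 630 alternative values of the members' log2 fold changes, 57 uncalled ones had the other sign.

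All genes called with hAAM were 7340 under library size alone (6559 higher), 2729 with only the 2 groups compared, and 2419 without control replicate 3. Between the treatments DESeq2 without the pair called 88 of all genes, none of them a member. With 3 to 5 mice a group, members such as G0s2 and Fabp1 had intervals of over 2 log2 units, so that changes of 2-fold could not be told from none. Of the 15 other pathway genes named for their change with vehicle, 8 of 15 called with vehicle and 3 of 10 called with hAAM kept their call in every alternative run. Hsd17b13 and Lpin1, named after their values were seen, are not among these 15, and their hAAM calls were not followed over the alternatives. Mogat2 gave no value with at least 10 counts in every liver. The cause of each change in a call was not tested.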
